A study of Mus musculus with 2 samples.

Results

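The Hox genes of the mouse genome were followed in mesenchymal cells of the large intestine by single-cell RNA sequencing. Every gene of both count tables whose symbol is Hox followed by a, b, c or d and a number was taken, which gave 39 of 32285 genes, 11 in the Hoxa cluster, 10 in Hoxb, 9 in Hoxc and 9 in Hoxd. The symbol alone decided which genes were members, though the family was chosen with earlier results of these data known. Of these, 30 had at least 50 UMIs (unique molecular identifiers, 1 for each captured transcript) over both libraries and entered the comparison of libraries, and 9 fell below that number.

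The study set out to profile sorted stromal cells of the colon, with 1 droplet library (10x Genomics 3' v3.1 chemistry) in each of 2 groups. The GF library came from Balb/c mice and the ff library from C57BL/6 mice. The design text names adult mice older than 8 weeks and, beside them, germ-free mice. It ties neither to a strain or a library by name: only the name GF marks that library as the germ-free one, no age is stated for germ-free mice, and no label explains the name ff. In both libraries the cells had been sorted for gp38, the fibroblast surface protein podoplanin, and against CD45 of leukocytes, EpCAM of epithelial cells and CD31 of endothelial cells. Strain and library coincide, so strain, library and the germ-free status read from the name GF cannot be told apart. The number of animals and the position along the large intestine are not given in the sources used here. With 1 library per group no difference has a replicate check, no test was made, and every interval below is an exact 95% interval that covers counting error only.

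GF was deposited as 16388 barcodes with 105331294 UMIs (median 6147.5), and ff as 13704 barcodes with 119866589 UMIs (median 8685), and 55 barcode sequences occurred in both tables. After filters on depth and mitochondrial RNA and removal of doublets, 14286 GF and 12152 ff cells remained. A fibroblast-like pool was then formed from cells with UMIs of at least 5 of 7 fibroblast markers (Col1a1, Col1a2, Col3a1, Pdgfra, Dcn, Lum, Pdpn), no Ptprc and few markers of other types. It held 12045 GF cells (84.3% of the remaining cells, median 6711 UMIs) and 11426 ff cells (94.0%, median 8894.5 UMIs). Over all remaining cells, Pdpn, the gene of gp38, stood at 317 CPM (UMIs of a gene per 1000000 UMIs) in GF and 268 CPM in ff. Ptprc, which encodes CD45, stood at 34.2 CPM in GF and 5.27 CPM in ff, and 944 GF cells and 56 ff cells carried lymphocyte markers with Ptprc, so the GF sort held more leukocytes.

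Hox genes encode homeodomain transcription factors, and in the mouse they lie in clusters on different chromosomes. Genes at the end of a cluster with low group numbers act towards the head, and genes at the end with high group numbers act towards the tail and the distal hindgut. In adult connective tissue, fibroblasts keep Hox codes laid down in the embryo, which serve as a record of position, while cofactors of the Meis and Pbx families sharpen their binding to DNA.

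In the GRCm38 assembly the Hoxa members lie on chromosome 6, and the Hoxb members span chr11:96194316-96368256, the Hoxc members chr15:102921103-103036852 and the Hoxd members chr2:74668310-74765142. The pattern reported below turns on group 13 genes (Hoxa13 and Hoxd13) set against Hoxc genes with Hoxd8 and Hoxd9. The promoters of 4 of these genes are therefore shown, each as the 300 bases from 250 before the start site of its RefSeq transcript to 50 after it on the GRCm38.p6 assembly, 5′ to 3′ on the gene's own strand, with capitals marking CG dinucleotides. Hoxa13 lies on the minus strand (chr6:52260831-52261130), and Hoxd13 (chr2:74667975-74668274), Hoxd9 (chr2:74697513-74697812) and Hoxd8 (chr2:74704365-74704664) lie on the plus strand.
Hoxa13: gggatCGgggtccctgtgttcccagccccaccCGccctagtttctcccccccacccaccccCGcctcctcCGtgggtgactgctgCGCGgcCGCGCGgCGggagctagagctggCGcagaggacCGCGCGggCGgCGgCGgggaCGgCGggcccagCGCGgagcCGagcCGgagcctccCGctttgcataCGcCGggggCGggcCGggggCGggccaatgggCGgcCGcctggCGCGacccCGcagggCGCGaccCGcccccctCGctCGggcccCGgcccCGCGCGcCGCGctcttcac
Hoxd13: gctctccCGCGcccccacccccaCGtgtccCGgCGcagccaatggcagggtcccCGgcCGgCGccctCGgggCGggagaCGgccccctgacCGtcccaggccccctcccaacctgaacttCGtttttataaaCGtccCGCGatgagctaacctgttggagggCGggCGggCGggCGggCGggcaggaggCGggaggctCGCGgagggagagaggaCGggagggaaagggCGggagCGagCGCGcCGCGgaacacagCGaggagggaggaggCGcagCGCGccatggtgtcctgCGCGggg
Hoxd8: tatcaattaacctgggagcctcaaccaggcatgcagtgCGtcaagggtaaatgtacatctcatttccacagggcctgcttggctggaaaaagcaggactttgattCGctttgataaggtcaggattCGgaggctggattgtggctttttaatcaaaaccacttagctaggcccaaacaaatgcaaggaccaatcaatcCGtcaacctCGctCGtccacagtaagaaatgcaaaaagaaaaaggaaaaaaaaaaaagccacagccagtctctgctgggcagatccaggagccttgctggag
Hoxd9: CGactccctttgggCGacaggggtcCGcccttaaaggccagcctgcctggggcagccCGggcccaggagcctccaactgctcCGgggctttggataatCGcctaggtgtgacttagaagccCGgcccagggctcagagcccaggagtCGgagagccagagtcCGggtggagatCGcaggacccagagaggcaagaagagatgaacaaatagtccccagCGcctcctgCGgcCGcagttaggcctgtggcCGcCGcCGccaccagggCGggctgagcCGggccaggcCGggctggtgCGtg
The Hoxa13 promoter held 45 CG dinucleotides at 81.0% G and C, and the Hoxd13 promoter held 37 at 74.3%. The Hoxd9 promoter held 20 at 68.3%, and the Hoxd8 promoter held 6 at 46.7%. Over all 32851 RefSeq mouse promoters of this length the median was 7 CG dinucleotides (quartiles 3 and 20), and over the 24 promoters of 22 Hox genes that the table covers it was 14.5. The group 13 promoters thus lay above the upper quartile and the Hoxd8 promoter near the median of all promoters. The words TTTATGG and TTTATTG, searched on both strands as letters that posterior Hox proteins are known to bind, occurred in 2.75% and 4.60% of all promoters and in none of the 4 shown. That says only that these letters are not in these windows.

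Taken over the fibroblast-like pool, Hox transcripts made up a similar part of the RNA in both libraries. The 39 genes summed to 212 CPM in GF (209 to 216) and 208 CPM in ff (205 to 211). Posterior genes dominated: groups 9 to 13 held 72.6% of all Hox UMIs in GF and 73.3% in ff, groups 4 to 8 held 21.7% in GF and 21.6% in ff, and groups 1 to 3 held 5.68% in GF and 5.12% in ff. By cluster, Hoxa supplied 51.4% of Hox UMIs in GF and 57.4% in ff, and Hoxd 32.8% in GF and 29.8% in ff. Hoxc supplied 8.88% in GF and 6.34% in ff, and Hoxb 6.96% in GF and 6.47% in ff. These are counts of 3' tags and are not divided by length, so they compare a gene between cells more safely than 1 gene with another.

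The member with the most UMIs in both libraries was Hoxa10, a group 10 gene known for patterning the uterus and the hindlimb. It stood at 35.0 CPM in GF and 35.7 CPM in ff, and 19.8% of GF cells and 25.4% of ff cells had a UMI of it. Hoxa13, which patterns the distal hindgut and the digits, stood at 21.7 CPM in GF (20.7 to 22.7) and 28.6 CPM in ff (27.6 to 29.7), and 12.4% of GF cells and 20.1% of ff cells had a UMI. Its partner in the Hoxd cluster, Hoxd13, stood at 17.2 CPM in GF and 19.6 CPM in ff, with UMIs in 9.61% of GF cells and 11.96% of ff cells. Lymphocyte-gated cells held 1 Hoxa13 UMI in GF (0.370 CPM) and none in ff (upper bound 13.5 CPM). That gate admitted only cells with few fibroblast markers, which leaves out cells with much free fibroblast RNA. These counts are therefore no measure of free RNA. The ff cells were deeper, which raises the share of cells with a UMI, so the CPM rather than the shares should be compared.

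The remaining posterior genes of Hoxa and Hoxd were also present in both libraries. Hoxd11, a kidney and forelimb patterning gene, stood at 20.3 CPM in GF and 14.7 CPM in ff, and Hoxa11 at 17.2 CPM in GF and 19.3 CPM in ff. Hoxa9, known for its role in blood progenitors, stood at 9.27 CPM in GF and 9.39 CPM in ff. Hoxd10 stood at 9.59 CPM in GF and 7.56 CPM in ff, and Hoxd9 at 11.1 CPM in GF and 9.52 CPM in ff. Group 12 was the gap in this posterior series: Hoxc12 had no UMI in the pool of either library (upper bounds 0.0438 CPM in GF and 0.0358 CPM in ff) and Hoxd12 had 3 UMIs in GF and 2 in ff.

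Of the central and anterior genes, Hoxa7 and Hoxd8 had the most UMIs. Hoxa7 stood at 14.5 CPM in GF and 14.6 CPM in ff, Hoxd8 at 9.70 CPM in GF and 9.46 CPM in ff, and Hoxa5 at 5.72 CPM in GF and 6.397 CPM in ff. In Hoxb the leading genes were Hoxb2 (3.96 CPM in GF, 3.29 CPM in ff), Hoxb4 (3.92 CPM in GF, 4.11 CPM in ff) and Hoxb3 (3.08 CPM in GF, 2.60 CPM in ff), genes known above all for hindbrain segments. Hoxa3, known for the pharyngeal pouches, stood at 3.01 CPM in GF and 2.97 CPM in ff.

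In Hoxc, Hoxc10 stood at 7.001 CPM in GF and 5.38 CPM in ff, Hoxc9 at 4.88 CPM in GF and 2.31 CPM in ff, and Hoxc6 at 3.09 CPM in GF and 2.79 CPM in ff. Both Hoxc9 and Hoxc10 are known for sorting spinal motor neurons by level. Hoxb5 (1.49 CPM in GF, 1.19 CPM in ff), Hoxc4 (1.31 CPM in GF, 0.961 CPM in ff), Hoxc8 (1.49 CPM in GF, 1.11 CPM in ff) and Hoxd4 (1.498 CPM in GF, 0.9998 CPM in ff) were the lowest of the 22 members with at least 200 UMIs. Members with at least 50 but fewer than 200 UMIs included Hoxa2, Hoxa4, Hoxa6, Hoxb6, Hoxb7, Hoxc5 and Hoxc11, which lay between 0.404 and 1.06 CPM in GF and between 0.272 and 1.05 CPM in ff.

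Of the 9 members under 50 UMIs, Hoxb13 is the posterior gene of its cluster, known from the prostate and the distal colon epithelium. It had 1 UMI in the pool of each library, although all barcodes together held 6 in GF and 50 in ff. Of these, 2 UMIs in GF and 33 in ff were in cells that passed the filters but were in neither the pool nor a named gate. The others were Hoxb1 (none in GF, 2 UMIs in ff), Hoxb8 (13 in GF, 16 in ff), Hoxb9 (18 in GF, 5 in ff), Hoxc13 (2 in GF, 2 in ff), Hoxd1 (2 in GF, none in ff) and Hoxd3 (12 in GF, 14 in ff), besides Hoxc12 and Hoxd12. Some members share exons with a neighbour on the same strand (Hoxc5 with Hoxc10, Hoxd3 with Hoxd4), so their UMIs may be split between the names. Several members, such as Hoxa3, Hoxa4, Hoxa7, Hoxa11, Hoxb2, Hoxb3, Hoxb5, Hoxd3 and Hoxd4, overlap an exon of an antisense RNA, and the sources used here do not state whether counting used the strand, so reads of such a pair might not be told apart.

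**Figure D1:**
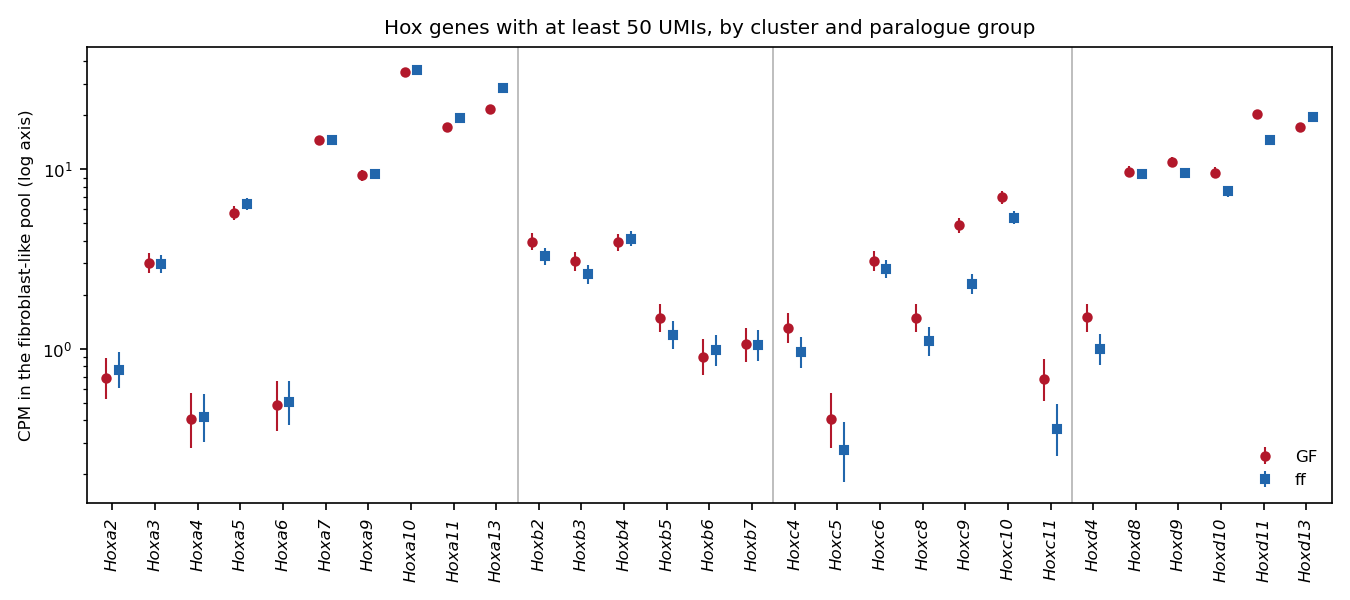
Level of 29 Hox genes with at least 50 UMIs in the fibroblast-like pool, in CPM on a log axis, by cluster and group number, for the GF library and the ff library (bars are exact 95% Poisson intervals). Hoxa10 stands highest at 35.0 CPM in GF and 35.7 CPM in ff, and the GF and ff points lie apart for Hoxc9 (4.88 CPM in GF, 2.31 CPM in ff).

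Over the pool as a whole, few Hox genes differed between the libraries by 1.5-fold or more, the size set here for calling a gene higher or lower. In GF over ff, 2 of the 30 members were higher (8.68% of the 14709 genes with as many UMIs were) and none was lower (10.8% of all genes were), with no test possible. The median log2 ratio was 0.09 over the members and 0.02 over all genes, and members lay between -0.40 and 1.08. The 2 members were Hoxc9 and Hoxc11, at log2 ratios of 1.08 (0.85 to 1.32) and 0.92 (0.29 to 1.55). Hoxc11 rests on 57 UMIs in GF and 37 in ff.

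Just short of that size were Hoxd4 at 0.58 and Hoxd11 at 0.47 (0.37 to 0.57) on the log2 scale. Hoxa13 had the lowest ratio, -0.40 (-0.48 to -0.31), followed by Hoxd13 at -0.19 (-0.29 to -0.09) and Hoxa11 at -0.16. Hoxa10 stood at -0.03.

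The make-up of the libraries differed along with these genes. Cells gated as Stmn2/Hapln1, which carry much Hoxa13, numbered 282 in GF and 1660 in ff, and Col6a5/Adamdec1 cells, which carry much Hoxc, numbered 1046 in GF and 315 in ff. When the GF gates were weighted by the shares they had in ff, the log2 ratio of Hoxa13 became -0.04 and that of Hoxd13 0.08. Under this weighting Hoxc10 stood at -0.09 in place of 0.38, Hoxc9 at 0.60 in place of 1.08 and Hoxc11 at 0.39 in place of 0.92, while Hoxd11 stood at 0.62 in place of 0.47. The sign turned for Hoxa11 (0.12 in place of -0.16), Hoxc6 (-0.39 in place of 0.15), Hoxd8 (-0.30 in place of 0.04) and Hoxd9 (-0.05 in place of 0.22) as well, none of which was called. The part played by sampling, position in the gut or strain in these shares was not tested.

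The cells were then sorted by marker genes into 11 gates, none of which uses a Hox gene. The Foxl1-high gate required at least 5 of 12 markers of the subepithelial cells that line the crypts (Foxl1, Wif1, Bmp3, Bmp5, Nrg1, Fgf9 and others), and the other gates at least 2 markers of short lists, 4 of 6 for Pi16 and 3 of 5 for Angptl1/Ackr4. A gate is a range and not a cell type: between 1.16% (Foxl1-high in ff) and 100% (the gates with 2 markers, which need both) of its cells had exactly the number required. The numbers required were set after the data had been seen. The gates held 6793 GF and 6506 ff cells, while 4113 GF and 3461 ff pool cells fell in no gate and 1139 GF and 1459 ff cells in several.

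Hox genes differed between gates. Each gate was set against all other pool cells of the same library, over the 26 members with at least 50 UMIs in each library. Of the 286 pairs of member and gate, 53 were higher and 93 were lower by 1.5-fold or more in both libraries. Over all genes the share higher ran from 2.11% (Sfrp2/Cxcl13) to 10.9% (Foxl1-high), depending on the gate. The share lower ran from 6.26% (Cxcl9/Cxcl10/Gbp4) to 19.5% (Efhd1/Ackr2/Ildr2), and each gate's share stands in brackets below. The counting intervals left out 0 in both libraries for 44 of the 53 and for 54 of the 93, and 42 pairs in GF and 27 in ff had no UMI in the gate.

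In the Foxl1-high gate (652 GF and 1380 ff cells), 4 of 26 members were higher (10.9% of 13105 genes were) and 11 were lower (12.1%), with a member median of -0.32 in GF and -1.20 in ff against 0.16 in GF and 0.11 in ff over all genes. All 4 belong to Hoxa. Hoxa13 stood at 44.8 CPM against 20.3 CPM in other GF cells and at 44.7 CPM against 26.4 CPM in other ff cells, log2 ratios of 1.14 in GF (0.93 to 1.35) and 0.76 in ff (0.63 to 0.89). Hoxa11 stood at 40.2 CPM against 15.8 CPM in other GF cells and at 28.1 CPM against 18.1 CPM in other ff cells.

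Hoxa3 (5.60 CPM against 2.85 CPM in GF, 4.31 CPM against 2.78 CPM in ff) and Hoxa9 (14.7 CPM against 8.94 CPM in GF, 13.3 CPM against 8.84 CPM in ff) made up the 4. The lower members were all 6 measured Hoxb genes and 5 Hoxc genes. Hoxb5 had no UMI in the Foxl1-high cells of either library, and Hoxb3 had none in GF and 1 in ff. The Wif1/Bmp3/Enho and the Nrg1/Fgf9 cells of this gate were alike in Hoxa13: 45.5 CPM and 39.0 CPM in GF, 45.4 CPM and 39.1 CPM in ff, with overlapping intervals. Hoxc UMIs were found in the Wif1/Bmp3/Enho cells alone, 20 in GF (4.64 CPM, 2.83 to 7.17) and 66 in ff (5.95 CPM, 4.60 to 7.57). The Nrg1/Fgf9 cells (73 GF and 160 ff) had none, with upper bounds of 7.19 CPM in GF and 2.58 CPM in ff. The intervals were thus apart in ff only.

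Foxl1-high cells also carried more smooth muscle RNA than the pool, 1038 CPM against 204 CPM in GF and 1253 CPM against 280 CPM in ff over 6 markers, of which 1 was at 0 in GF and none in ff. The median cell had UMIs of 1 of the 6 markers in GF and 2 in ff. Smooth muscle-gated cells outside the pool had 14573 CPM in GF and 12763 CPM in ff. Hoxa13 stood at 58.7 CPM in GF and 44.7 CPM in ff in those cells, so they do not lack it. Its part in the Foxl1-high values was not tested.

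The Cd36/Prdm1/Tbx3 gate, a lamina propria set (298 GF and 322 ff cells), also had more Hoxa11. That was the only member higher in both libraries (4.16% of all genes were), at 35.8 CPM against 16.7 CPM in GF and 29.8 CPM against 18.9 CPM in ff, and 16 members were lower (7.95%), among them Hoxb2 and Hoxb4 with no UMI in the gate of either library. The intervals left out 0 in both libraries for 9 of the 16, and 8 members in GF and 8 in ff had no UMI in the gate. The member median was -1.61 in GF and -2.26 in ff, or -0.46 in GF and -0.50 in ff with members at 0 set at a floor of 3 UMIs, against 0.05 in GF and -0.05 in ff over all genes. Hoxa13 stood at 55.3 CPM against 20.8 CPM in GF but at 34.8 CPM against 28.4 CPM in ff, and so was called in GF alone.

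In the Stmn2/Hapln1 gate (282 GF and 1660 ff cells) both group 13 genes were higher, with 3 members higher (2.21% of all genes were) and 14 lower (8.33%). Hoxd13 stood at 38.8 CPM against 16.7 CPM in GF and at 38.1 CPM against 15.9 CPM in ff, log2 ratios of 1.22 in GF (0.88 to 1.54) and 1.26 in ff (1.12 to 1.40). Hoxa13 stood at 36.1 CPM against 21.3 CPM in GF and 39.9 CPM against 26.3 CPM in ff. Hoxd11, the third, stood at 30.6 CPM against 20.01 CPM in GF and 21.0 CPM against 13.4 CPM in ff.

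The lower members of this gate were 5 Hoxb genes, 5 Hoxc genes, Hoxa5, Hoxd4, Hoxd8 and Hoxd9. The intervals left out 0 in both libraries for 6 of these 14, and 9 of the 26 members had no UMI in the GF gate. For Hoxb5, Hoxb7, Hoxc8 and Hoxd4 the other GF cells themselves stood near the floor of 3 UMIs, so those calls rest on genes near 0. Hoxb2 had no UMI in the GF gate and stood at 0.639 CPM against 3.82 CPM in ff. All Hoxc genes together came to 0.456 CPM in GF (1 UMI, 0.0116 to 2.54) and 0.755 CPM in ff (13 UMIs, 0.402 to 1.29). Over the members the median was -1.54 in GF and -1.78 in ff (-0.43 in GF and -1.78 in ff with zeros at the floor), against -0.01 in GF and -0.06 in ff over all genes.

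Sfrp2/Cxcl13 cells (523 GF and 217 ff) had 2 members higher (2.11%) and 13 lower (6.77%). The intervals left out 0 in both libraries for 5 of the 13, and 6 members in GF and 7 in ff had no UMI in the gate. Hoxd13 stood at 30.7 CPM against 16.6 CPM in GF and 29.2 CPM against 19.4 CPM in ff, and Hoxd10 at 15.6 CPM against 9.31 CPM in GF and 12.9 CPM against 7.46 CPM in ff. Hoxb2 had 1 UMI in the GF gate and none in the ff gate. The median of the members was -1.54 in GF and -0.78 in ff, or -0.84 in GF and 0.03 in ff with zeros at the floor, against -0.02 in GF and -0.08 in ff over all genes. The ff median therefore rests on genes too low to be measured in 217 cells.

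The Col6a5/Adamdec1 gate, another lamina propria set (1046 GF and 315 ff cells), ran the other way for group 13 and Hoxc. Here 11 members were higher (6.05%) and 8 lower (6.45%), with a member median of 0.89 in GF and 0.49 in ff against 0.06 in GF and 0.02 in ff over all genes. Hoxd9 stood at 35.5 CPM against 8.996 CPM in GF and at 30.3 CPM against 8.98 CPM in ff, log2 ratios of 1.98 in GF (1.76 to 2.19) and 1.75 in ff (1.40 to 2.09). Hoxc6 stood at 8.86 CPM against 2.60 CPM in GF and at 14.2 CPM against 2.49 CPM in ff.

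Hoxd4 (6.27 CPM against 1.10 CPM in GF, 2.30 CPM against 0.966 CPM in ff) was higher as well, its value in ff resting on 6 UMIs. Lower were Hoxa13 (11.8 CPM against 22.5 CPM in GF, 18.0 CPM against 28.9 CPM in ff), Hoxd13 (5.81 CPM against 18.2 CPM in GF, 2.30 CPM against 20.1 CPM in ff) and 6 Hoxb genes. The intervals left out 0 in both libraries for 5 of these 8. Hoxb2 had 1 UMI in the gate of each library.

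The Myoc/Kcnn3 gate (705 GF and 592 ff cells) held the highest Hoxb levels of the 11 gates. Of 26 members 13 were higher (5.41%) and 1 was lower (8.4%), with a member median of 0.97 in GF and 0.96 in ff against -0.06 over all genes in both. Hoxb2 stood at 23.1 CPM against 2.68 CPM in GF and at 22.4 CPM against 2.27 CPM in ff, log2 ratios of 3.11 in GF (2.78 to 3.44) and 3.30 in ff (2.96 to 3.63). Hoxb3 stood at 17.1 CPM against 2.14 CPM in GF and 17.0 CPM against 1.83 CPM in ff.

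Hoxb6 (5.50 CPM against 0.596 CPM in GF, 6.11 CPM against 0.716 CPM in ff) and Hoxb5 (8.35 CPM against 1.03 CPM in GF, 6.49 CPM against 0.910 CPM in ff) followed, and all 6 measured Hoxb genes were higher. Hoxc4, Hoxc8, Hoxc9, Hoxc10, Hoxd4, Hoxd8 and Hoxd9 were the other 7. Hoxa13 was the single lower member, at 5.12 CPM against 22.8 CPM in GF and 8.02 CPM against 29.7 CPM in ff. These cells carried more pericyte marker RNA than the pool, 229 CPM against 63.7 CPM in GF and 264 CPM against 72.0 CPM in ff over 6 markers with none at 0, and its part was not tested.

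Angptl1/Ackr4 cells (254 GF and 427 ff), a submucosal set, also had more Hoxb RNA than other cells. Here 8 members were higher (2.73%) and 4 lower (7.5%), with a member median of -0.08 in GF and 0.61 in ff against -0.12 in GF and -0.07 in ff over all genes. The intervals left out 0 in both libraries for 4 of the 8 and for 3 of the 4. Hoxb2 stood at 14.8 CPM against 3.74 CPM in GF and 7.15 CPM against 3.15 CPM in ff, and Hoxb3 at 11.9 CPM against 2.90 CPM in GF and 5.72 CPM against 2.49 CPM in ff. Hoxb6 (4.75 CPM against 0.825 CPM in GF, 2.002 CPM against 0.955 CPM in ff) and Hoxb5 (7.13 CPM against 1.37 CPM in GF, 2.002 CPM against 1.17 CPM in ff) rest on 7 to 12 UMIs in the gate.

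Among the lower members, Hoxa13 stood at 4.16 CPM against 22.1 CPM in GF and 12.01 CPM against 29.2 CPM in ff. Hoxd13 stood at 7.72 CPM against 17.4 CPM in GF and 8.58 CPM against 20.02 CPM in ff, and Hoxa11 at 10.1 CPM against 17.4 CPM in GF and 7.72 CPM against 19.7 CPM in ff.

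The Efhd1/Ackr2/Ildr2 gate (734 GF and 402 ff cells) had 6 members higher (5.55%) and 6 lower (19.5%). Hoxa13 stood at 1.39 CPM against 23.6 CPM in GF and at 5.49 CPM against 29.6 CPM in ff, log2 ratios of -4.09 in GF (-5.15 to -3.21) and -2.43 in ff (-3.09 to -1.84). Hoxa11 stood at 1.94 CPM against 18.7 CPM in GF and 2.39 CPM against 20.003 CPM in ff. Hoxa10 was present but lower, at 13.6 CPM against 37.0 CPM in GF and 15.5 CPM against 36.6 CPM in ff, and Hoxd10 at 2.64 CPM against 10.2 CPM in GF and 4.06 CPM against 7.71 CPM in ff.

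Higher in these cells were Hoxd8 (17.1 CPM against 9.01 CPM in GF, 18.4 CPM against 9.09 CPM in ff), Hoxc9 (8.89 CPM against 4.51 CPM in GF, 5.01 CPM against 2.20 CPM in ff), Hoxc4 (3.61 CPM against 1.09 CPM in GF, 2.39 CPM against 0.900 CPM in ff), Hoxb7, Hoxb2 and Hoxc10. Members had a median log2 ratio of -0.61 in GF and 0.33 in ff, against -0.21 in GF and -0.13 in ff over all genes.

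Ntrk3/Bdkrb1/Ccn5 cells (389 GF and 154 ff) had the least group 13 RNA of the 11 gates. No UMI of Hoxa13 was counted in the GF gate. The floor of 3 UMIs, a set value and not the end of an interval, would be 1.08 CPM there. At that floor Hoxa13 would be 20.8-fold lower than the 22.4 CPM of other GF cells. The ff gate held 2 UMIs (1.52 CPM against 29.0 CPM). Hoxd13 stood at 1.08 CPM against 17.8 CPM in GF and 3.04 CPM against 19.9 CPM in ff, and Hoxa11 at 1.08 CPM against 17.8 CPM in GF and 4.56 CPM against 19.5 CPM in ff.

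Of the 26 members, 4 were higher in this gate (3.05%) and 7 lower (18.8%), and the 4 were all Hoxc genes. The intervals left out 0 in both libraries for 2 of the 4 and for 5 of the 7. Hoxc8 and Hoxc9 changed sign in 1 library after thinning to 2000 UMIs, and also with 1 more marker required. Hoxc10 stood at 11.8 CPM against 6.83 CPM in GF and 12.2 CPM against 5.29 CPM in ff, and Hoxc9 at 9.33 CPM against 4.73 CPM in GF and 6.08 CPM against 2.26 CPM in ff. Hoxc4 and Hoxc8 rest on 4 to 10 UMIs in each library. The member median was -1.32 in GF and 0.76 in ff (-1.11 in GF and 1.03 in ff with zeros at the floor), against -0.41 in GF and -0.17 in ff over all genes.

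Pi16 cells (1711 GF and 939 ff), the adventitial set that surrounds vessels, had 1 member higher (2.59%) and 6 lower (12.8%). Hoxb5 was higher at 2.89 CPM against 1.25 CPM in GF and 2.90 CPM against 1.06 CPM in ff. Among the lower members were Hoxa13 (11.7 CPM against 23.4 CPM in GF, 8.96 CPM against 30.2 CPM in ff), Hoxa11 (8.35 CPM against 18.7 CPM in GF, 5.80 CPM against 20.4 CPM in ff), Hoxa9, Hoxa10 and Hoxa5. Over the members the median was -0.54 in GF and 0.47 in ff, against -0.17 in GF and -0.16 in ff over all genes.

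In Cxcl9/Cxcl10/Gbp4 cells, the interferon-activated set (199 GF cells and 98 ff cells), no member was higher (3.59%) and 7 were lower (6.26%), none with an interval off 0 in both libraries. The median of the members was -2.25 in GF and -0.17 in ff, or -0.60 in GF and 0.08 in ff with zeros at the floor, against 0.00 in GF and -0.06 in ff over all genes. Some lower calls in this gate, such as those of Hoxc4 and Hoxc8, therefore rest on genes near 0. Hoxd9, also called lower, is not such a gene, at 11.1 CPM in GF and 9.52 CPM in ff over the pool.

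Gates differ in RNA content and in how their other genes moved. Over genes with UMIs both in the gate and in other cells, the median log2 ratio, which is the shift that scaling by median of ratios removes, was over 0.1 in size in the Ntrk3/Bdkrb1/Ccn5 gate (-0.39 in GF, -0.14 in ff), in Efhd1/Ackr2/Ildr2 (-0.19 in GF, -0.11 in ff), in Pi16 (-0.17 in GF, -0.16 in ff), in Foxl1-high (0.17 in GF, 0.11 in ff) and in Angptl1/Ackr4 of GF (-0.11). With that scaling, 137 of the 146 called pairs were still called the same way and none changed sign.

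**Figure D2:**
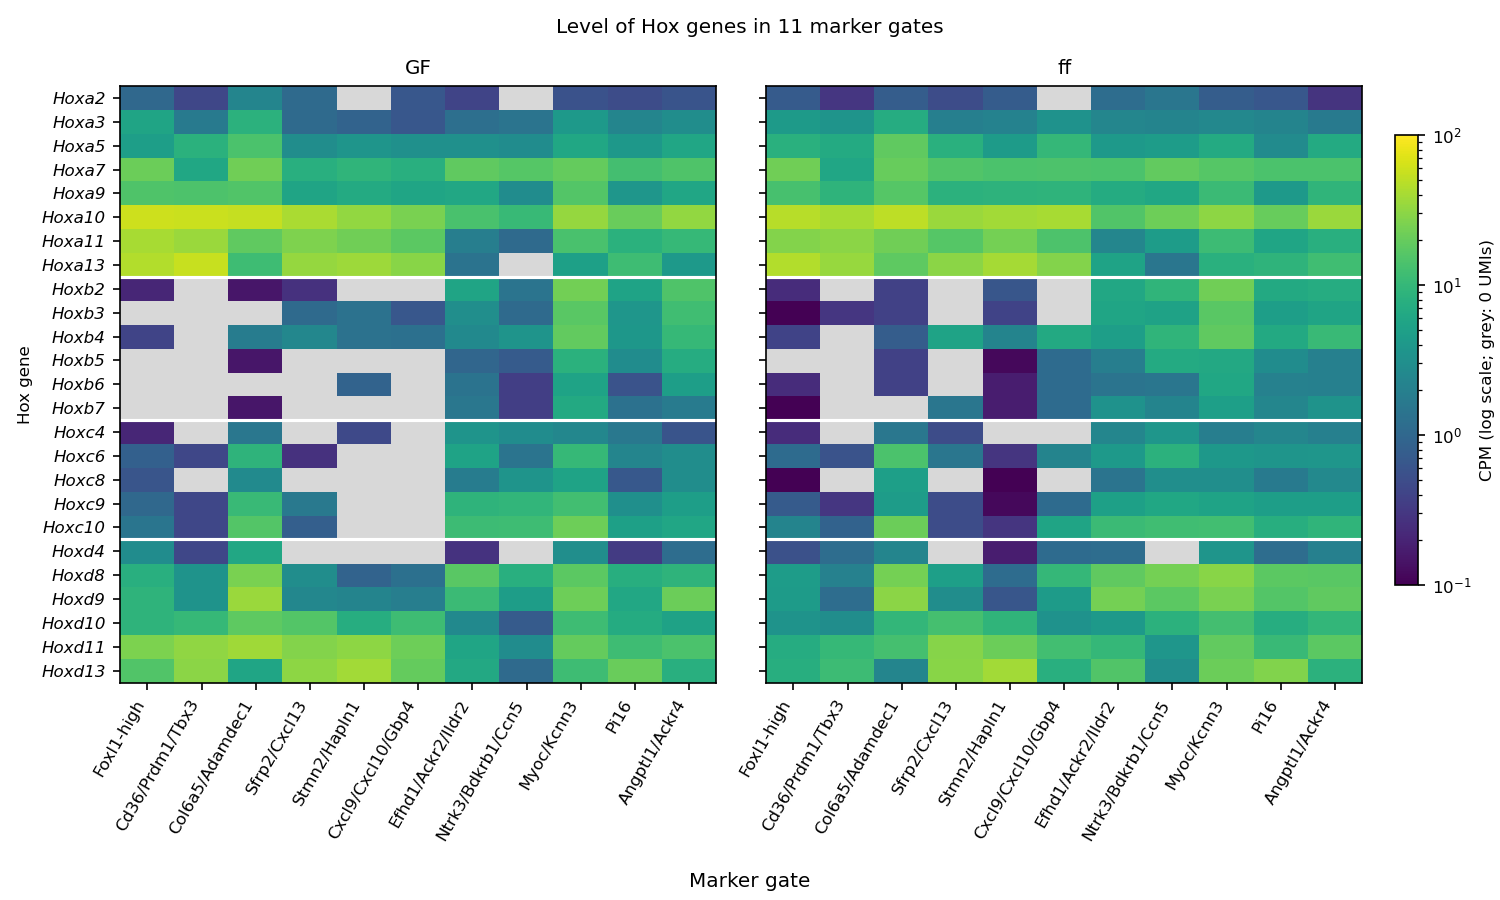
Level in CPM, on a log colour scale with grey for 0 UMIs, of 25 Hox genes (rows) in each marker gate (columns), for the GF library on the left and the ff library on the right. Hoxb genes stand out in the Myoc/Kcnn3 gate (Hoxb2 at 23.1 CPM in GF and 22.4 CPM in ff), and Hoxa13 is lowest in the Ntrk3/Bdkrb1/Ccn5 gate (no UMI in GF, 1.52 CPM in ff).

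Summed by set, the gates fell on a scale from group 13 to Hoxc. In Cd36/Prdm1/Tbx3 cells, Hoxa13 and Hoxd13 together came to 85.5 CPM in GF, the most of the 11 gates there, but to 46.3 CPM in ff. They came to 74.8 CPM in GF and 78.1 CPM in ff in Stmn2/Hapln1 cells, and to 64.0 CPM in GF and 59.0 CPM in ff in Sfrp2/Cxcl13 cells. At the other end they came to 1.08 CPM in GF and 4.56 CPM in ff in Ntrk3/Bdkrb1/Ccn5 cells. Foxl1-high cells lay high (60.1 CPM in GF, 52.2 CPM in ff) and Efhd1/Ackr2/Ildr2 cells low (7.92 CPM in GF, 20.8 CPM in ff).

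Hoxc genes ran the other way. They summed to 53.9 CPM in GF and 27.5 CPM in ff in Myoc/Kcnn3 cells, and to 43.9 CPM in GF and 48.7 CPM in ff in Col6a5/Adamdec1 cells. In Foxl1-high cells they summed to 4.15 CPM in GF and 5.27 CPM in ff, and in Sfrp2/Cxcl13 cells to 2.96 CPM in GF and 2.97 CPM in ff. The total over all 39 genes varied less, with 326 CPM in GF and 291 CPM in ff in Col6a5/Adamdec1 cells, 325 CPM in GF and 306 CPM in ff in Myoc/Kcnn3 cells, and 91.9 CPM in GF and 186 CPM in ff in Ntrk3/Bdkrb1/Ccn5 cells.

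**Figure D3:**
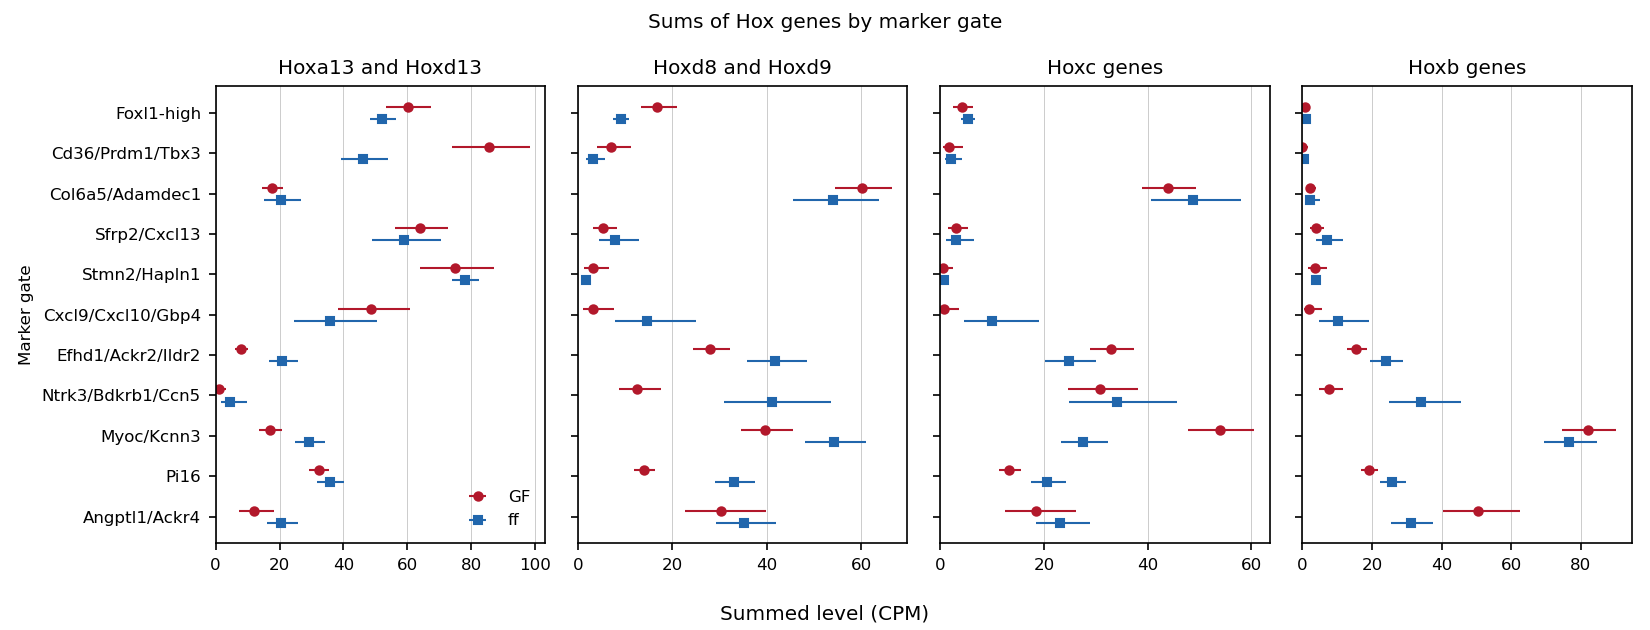
Summed level in CPM of 4 sets of Hox genes in each of the 11 marker gates, for the GF and the ff library (bars are exact 95% Poisson intervals). Hoxa13 with Hoxd13 reach 74.8 CPM in GF and 78.1 CPM in ff in the Stmn2/Hapln1 gate, where Hoxc genes sum to 0.456 CPM in GF (1 UMI) and 0.755 CPM in ff (13 UMIs).

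To see whether single cells carry both sets, cells with UMIs of both were counted inside each gate. To hold depth equal, cells were thinned to 2000 UMIs (6734 GF and 6476 ff cells in the 11 gates), and the count expected was the product of the 2 shares inside each gate, summed over gates. Cells with Hoxa13 or Hoxd13 and also a Hoxc gene numbered 0 against 8.55 expected in GF (ratio 0, 0 to 0.432) and 3 against 9.13 expected in ff (ratio 0.329, 0.0678 to 0.960). With 4000 UMIs per cell they numbered 3 against 25.1 in GF and 6 against 27.7 in ff. With all UMIs, and the expected count taken within 10 depth bins, they numbered 11 against 78.7 in GF (ratio 0.140, 0.0698 to 0.250) and 23 against 91.7 in ff (ratio 0.251, 0.159 to 0.377).

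Hoxd8 and Hoxd9, which lie in the same cluster as Hoxd13, were counted in the same way. At 2000 UMIs, cells with a group 13 UMI and a Hoxd8 or Hoxd9 UMI numbered 3 against 11.4 expected in GF (ratio 0.264, 0.0544 to 0.771) and 8 against 15.4 expected in ff (ratio 0.518, 0.224 to 1.02). Cells with a Hoxc gene and Hoxd8 or Hoxd9 gave ratios of 1.37 in GF (0.909 to 1.98) and 1.45 in ff (0.831 to 2.36), so at this depth those intervals, and that of group 13 with Hoxd8 or Hoxd9 in ff, hold 1. The counts with all UMIs, a setting added after the data had been seen, are larger. There, cells with a group 13 UMI and a Hoxd8 or Hoxd9 UMI numbered 33 against 113 expected in GF (ratio 0.291, 0.201 to 0.409) and 59 against 152 expected in ff (ratio 0.388, 0.295 to 0.50). Cells with a Hoxc gene and Hoxd8 or Hoxd9 numbered 235 against 157 expected in GF (ratio 1.495, 1.31 to 1.699) and 218 against 128 in ff (ratio 1.70, 1.48 to 1.94). Hoxd8 with Hoxd9 occurred in 105 cells against 58.4 expected in GF and in 147 against 71.7 in ff.

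For Hoxb genes with group 13 genes, the intervals held 1 in both settings. The ratio was 0.891 in GF (0.358 to 1.84) and 1.14 in ff (0.621 to 1.91) at 2000 UMIs, and 1.19 in GF (0.952 to 1.46) and 1.15 in ff (0.971 to 1.36) with all UMIs, so in GF the side of 1 depended on the setting. The same was true of Hoxa13 with Hoxd13, at 0.736 in GF (0.296 to 1.52) and 1.35 in ff (0.786 to 2.16) at 2000 UMIs, and 1.20 in GF (0.991 to 1.45) and 1.12 in ff (0.979 to 1.28) with all UMIs. For Hoxb with Hoxc genes the ratio was 0.585 in GF (0.253 to 1.15) and 0.720 in ff (0.264 to 1.57) at 2000 UMIs, and 0.715 in GF (0.564 to 0.893) and 0.715 in ff (0.552 to 0.911) with all UMIs.

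Group 13 with Hoxc was also below the expected count in the 5 gates with the most expected in GF. With all UMIs, cells with both numbered 0 against 23.4 expected in GF and 6 against 22.5 in ff among Pi16 cells, 2 against 16.4 in GF and 2 against 14.4 in ff among Myoc/Kcnn3 cells, and 4 against 16.1 in GF and 1 against 12.7 in ff among Col6a5/Adamdec1 cells. In Efhd1/Ackr2/Ildr2 cells they numbered 2 against 11.1 in GF and 2 against 10.5 in ff, and in Foxl1-high cells 0 against 4.34 in GF and 7 against 15.1 in ff. An exception was the Stmn2/Hapln1 gate of ff, where group 13 occurred with Hoxd8 or Hoxd9 in 22 cells against 14.2 expected (ratio 1.54, 0.968 to 2.34). Gates are ranges that may hold more than 1 kind of cell, and how far such a mixture accounts for these counts was not tested.

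**Figure D4:**
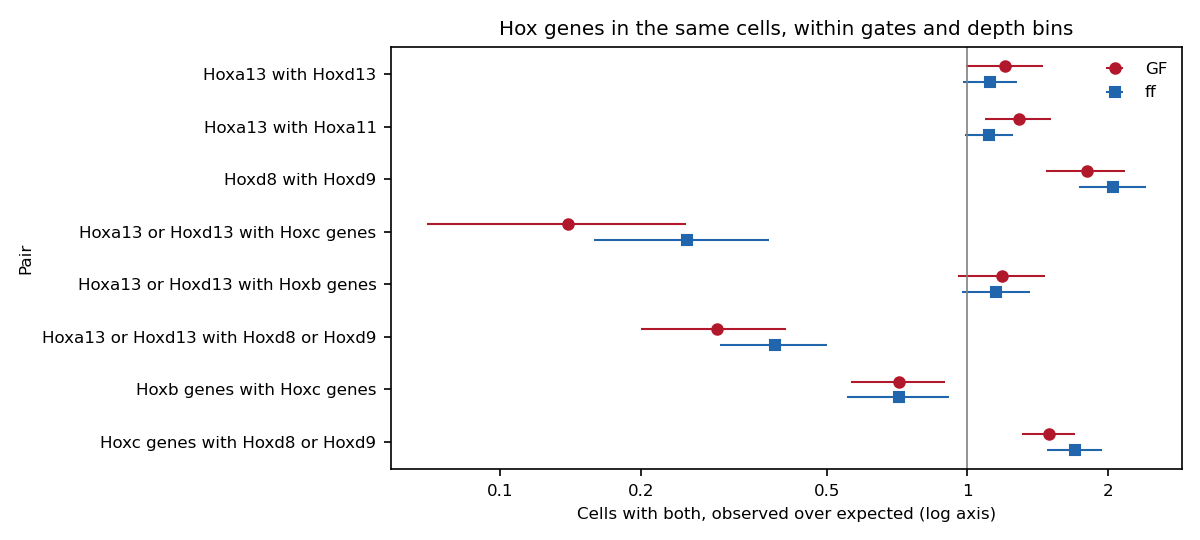
Observed over expected number of cells with UMIs of both genes or sets, over the 11 gates together, in the GF and the ff library (bars are exact 95% intervals of the observed count, the line marks a ratio of 1). Group 13 with Hoxc lies far under 1 with all UMIs (0.140 in GF, 0.251 in ff) and Hoxd8 with Hoxd9 above 1 (1.80 in GF, 2.05 in ff).

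After these counts had been seen, the gated cells were divided by them: cells with a Hoxa13 or Hoxd13 UMI and none of a Hoxc gene, Hoxd8 or Hoxd9 (1174 GF and 1847 ff cells, called group 13 cells), and cells with the reverse (1399 GF and 1071 ff cells, called Hoxc/Hoxd8-9 cells). Both kinds of UMI were found in 39 GF and 75 ff cells, and neither in 4181 GF and 3513 ff cells, so most cells were left out. A gate often held both: Pi16 cells included 284 group 13 cells and 220 Hoxc/Hoxd8-9 cells in GF, and 163 group 13 cells and 236 Hoxc/Hoxd8-9 cells in ff. Their median depths there were 7345.5 UMIs against 7904 UMIs in GF and 8666 UMIs against 8594 UMIs in ff. Depths were less alike in other gates. Group 13 cells were deeper in Col6a5/Adamdec1 (7349 against 5916 UMIs in GF, 9700.5 against 8367 in ff) and Foxl1-high cells (8052 against 6964.5 in GF, 9387 against 8273 in ff). They were shallower in Myoc/Kcnn3 cells (6670.5 against 7715 in GF, 8230 against 9342 in ff). Other genes were compared between the classes within gates, as a ratio with the gates as strata.

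Among factors of gut and limb position, Isl1 was higher in group 13 cells of both libraries. From a list of 40 such factors, 21 had enough UMIs, 3 were higher in group 13 cells by 1.5-fold or more in both libraries (1.47% of 11222 genes were) and 4 were lower (2.04%). The list medians were 0.02 in GF and 0.04 in ff, against 0.01 in GF and -0.06 in ff over all genes. Isl1, a LIM homeodomain factor known from motor neurons, the heart and the pancreas, had 793 UMIs in group 13 cells and 57 in Hoxc/Hoxd8-9 cells of GF (85.7 CPM against 5.03 CPM). In ff it had 1292 against 53 UMIs (68.3 CPM against 5.38 CPM). With gates as strata its log2 ratio was 2.72 in GF and 2.28 in ff.

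Isl1 was higher in group 13 cells in each of the 5 gates that held at least 30 cells of both classes in both libraries. In Pi16 cells it stood at 73.1 CPM against 5.39 CPM in GF and 45.6 CPM against 1.97 CPM in ff, and in Col6a5/Adamdec1 cells at 109 CPM against 5.78 CPM in GF and 74.6 CPM against 8.71 CPM in ff. In Foxl1-high cells it stood at 61.8 CPM against none in GF and at 54.3 CPM against 7.69 CPM in ff. In Efhd1/Ackr2/Ildr2 cells it stood at 23.2 CPM against 1.37 CPM in GF and 21.2 CPM against 1.80 CPM in ff, and in Myoc/Kcnn3 cells at 10.5 CPM against 0.445 CPM in GF and 14.3 CPM against 0.905 CPM in ff.

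Osr2, an odd-skipped zinc finger factor of limb and palate, was higher in group 13 cells with gates as strata (log2 0.95 in GF, 1.47 in ff), although the levels without strata were alike (15.7 CPM against 15.8 CPM in GF, 8.35 CPM against 8.93 CPM in ff). Its clearest gate was Efhd1/Ackr2/Ildr2 (83.7 CPM against 38.0 CPM in GF, 60.2 CPM against 12.6 CPM in ff), and in Foxl1-high cells of ff it ran the other way (4.1961 CPM against 7.69 CPM). Zfhx4, a large zinc finger and homeodomain factor, was lower (log2 -1.36 in GF, -1.66 in ff), for example in Pi16 cells at 14.3 CPM against 60.4 CPM in GF and 24.2 CPM against 110 CPM in ff. Foxl1-high cells of GF were an exception for Zfhx4, at 6.48 CPM against none.

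Hand2, known for the enteric nervous system and the limb bud, was lower as well (log2 -0.60 in GF, -0.94 in ff). Of the other listed genes past 1.5-fold, Tbx3 (0.78 in GF, 1.38 in ff) and Wt1 (-1.18 in GF, -1.26 in ff) are gate markers. None of the 8 measured cofactors of the Meis, Pbx and Pknox families passed 1.5-fold in both libraries, with medians of -0.11 in GF and -0.15 in ff. Among genes of any kind with at least 200 UMIs in each library, picked after their values were seen, the next highest were Dner, a transmembrane protein related to Notch ligands (2.39 in GF, 2.09 in ff), Plcb1, a phospholipase C (2.14 in GF, 2.15 in ff), and Fgf12 (1.19 in GF, 2.36 in ff). The lowest besides gate markers were Ces1d, a carboxylesterase (-3.49 in GF, -2.49 in ff), Vit, a matrix protein (-2.55 in GF, -2.04 in ff), Aoc3, an amine oxidase (-1.90 in GF, -2.65 in ff), and Sfrp4, a secreted Wnt antagonist (-2.49 in GF, -1.70 in ff).

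**Figure D5:**
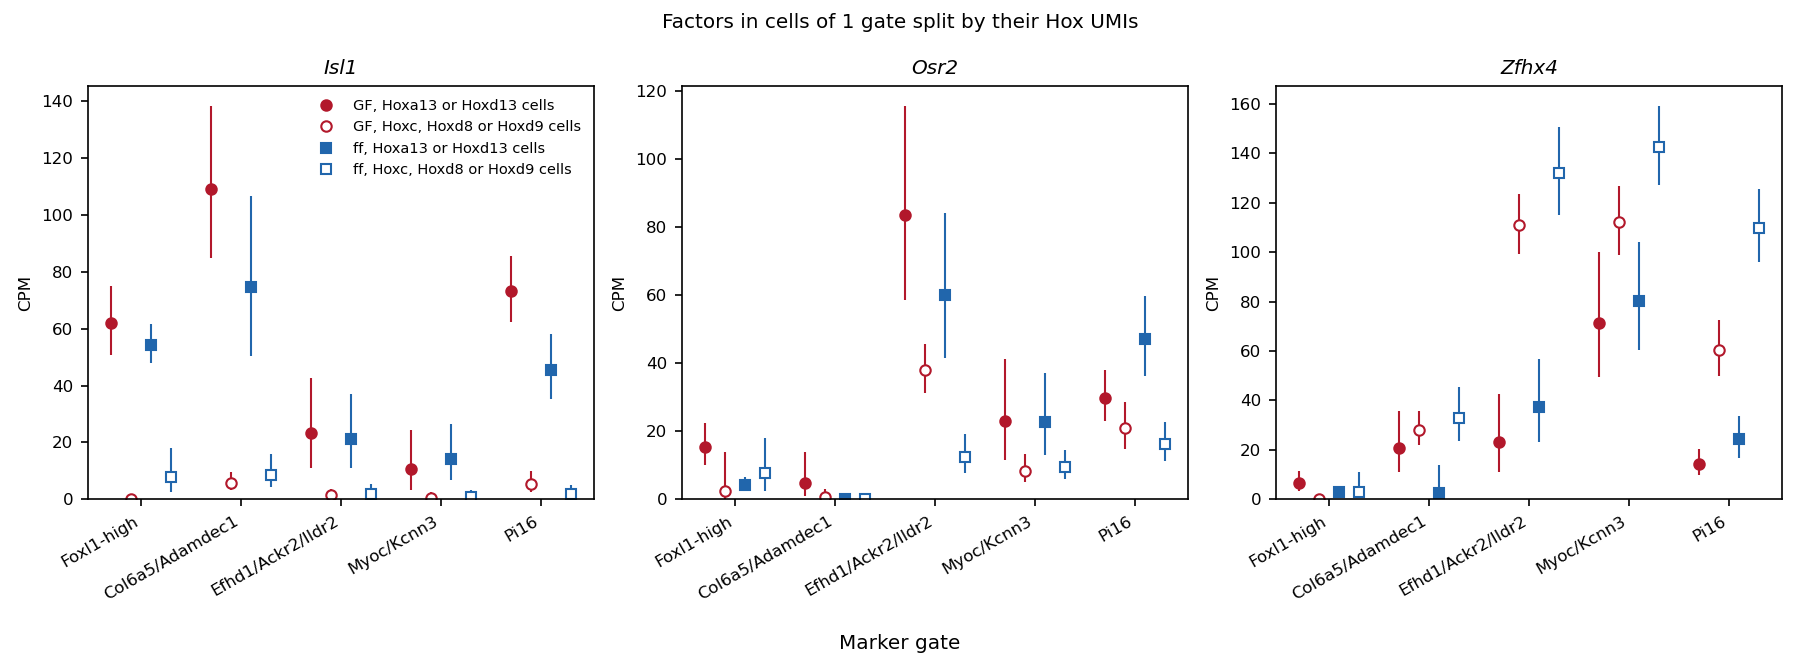
Level in CPM of Isl1, Osr2 and Zfhx4 in group 13 cells (filled) and in Hoxc/Hoxd8-9 cells (open) of the same gate, with exact 95% Poisson intervals, for the 5 gates with at least 30 cells of both classes, in the GF and the ff library. Isl1 is higher in group 13 cells in all 5 gates (Pi16 73.1 CPM against 5.39 CPM in GF), while Zfhx4 is lower in group 13 cells of the Pi16 gate (14.3 CPM against 60.4 CPM in GF).

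Cells outside the fibroblast-like pool carried Hox RNA too. All 39 genes summed to 321 CPM in GF and 242 CPM in ff in smooth muscle-gated cells (385 GF and 220 ff), where Hoxa10 stood at 76.5 CPM in GF and 57.3 CPM in ff. Lymphatic endothelium-gated cells (51 GF and 42 ff) reached 542 CPM in GF and 383 CPM in ff. They led in Hoxa7 (115 CPM in GF, 63.2 CPM in ff) and Hoxd9 (94.4 CPM in GF, 67.2 CPM in ff), with Hoxb7 at 45.4 CPM in GF and 51.4 CPM in ff and only 1 UMI of Hoxa13 in GF and 3 in ff. Lymphocyte-gated cells summed to 8.88 CPM in GF (5.69 to 13.2) and 7.31 CPM in ff (0.885 to 26.4), from 24 UMIs in GF and 2 in ff. Of these, 7 in GF and 2 in ff were of Hoxb4, while Hoxa10, the leading gene of the pool, had 2 in GF and none in ff. The make-up thus differed from that of the pool, so this sum cannot be taken as the level of free RNA. Its source was not tested.

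Between libraries the cofactors moved little. Of 9 cofactors none was higher (8.68% of all genes were) or lower (10.8%) by 1.5-fold or more, with a median log2 ratio of -0.17. Among those with at least 200 UMIs over both libraries, Meis2 had the lowest ratio, at 107 CPM in GF and 134 CPM in ff (-0.32). Pknox1 stood at 31.7 CPM in GF and 39.0 CPM in ff and Meis3 at 15.9 CPM in GF and 18.4 CPM in ff. Of the 40 gut and positional factors 28 were measured, 5 were higher (8.68% of all genes were) and 3 lower (10.8%), with a median of 0.02. Osr1, which marks mesenchymal progenitors in the embryo, was the furthest apart of those with at least 200 UMIs, at 267 CPM in GF and 104 CPM in ff (log2 1.36).

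Also past 1.5-fold were Tbx4, a hindlimb and lung factor, at 1.84 CPM in GF and 3.40 CPM in ff (-0.88), and Wt1 at 7.17 CPM in GF and 4.19 CPM in ff (0.77). Isl1 was level at 48.6 CPM in GF and 48.2 CPM in ff. Of 21 neighbours inside or beside the clusters 13 were measured, 2 higher (8.68% of all genes were) and 4 lower (10.8%), with a median of -0.18.

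Hotairm1, a noncoding RNA of the Hoxa cluster, stood at 11.2 CPM in GF and 24.1 CPM in ff (log2 -1.11, -1.22 to -0.997). Gm15050, an unnamed transcript of the Hoxa cluster, stood at 1.89 CPM in GF and 4.66 CPM in ff (-1.30). Evx2, the homeobox gene beyond Hoxd13, stood at 2.07 CPM in GF and 1.30 CPM in ff (0.67), and Hoxa11os, antisense to Hoxa11, at 32.1 CPM in GF and 36.3 CPM in ff (-0.18). The coding gene Hoxa2, near Hotairm1, did not pass 1.5-fold, at 0.689 CPM in GF and 0.767 CPM in ff.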

How the data were processed

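Per the submitters' processing notes, Cell Ranger 6.0.0 and the mm10 assembly were used; no source used here names the release of the annotation. Values in the deposited files are raw counts of UMIs by Ensembl gene and barcode, with no scaling by the authors. Symbols, coordinates and overlaps came from the GENCODE annotation of the same assembly, and promoters from RefSeq (GRCm38.p6). Cells needed 500 genes, 1000 UMIs and at most 10% mitochondrial UMIs, and doublets were removed with Scrublet in scanpy 1.11.5 (780 GF cells, 5.18%; 550 ff cells, 4.33%). Thinning to 2000 UMIs left out 310 GF and 189 ff cells of the pool. UMIs were summed per library and gate and given as CPM with exact Poisson intervals. Log2 ratios have no pseudocount and exact conditional binomial intervals. With 1 library per group no test was made. Values were given for every member with at least 200 UMIs in the pool over both libraries, and for up to 4 members a gate and direction, by mean log2 ratio, and up to 4 genes a background list; some genes are not reported here, though counts and medians over lists include them. The Hox members, gene lists, markers and rules were chosen with earlier results of these data known. The steps were tested on simulated counts. Python 3.11.15, numpy 2.4.6, pandas 2.3.3, scipy 1.17.1 and matplotlib 3.10.9 were used.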

Additional observations from a re-analysis of the deposited data

Results flagged for a closer look

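For 6 members the GF over ff ratio ran in opposite directions in different gates, by 1.5-fold or more and with counting intervals off 0 on each side. The same count was not made over all genes, so it cannot be read as particular to Hox genes. The difference between gates was not tested, and with 1 library per group it has no replicate check. Hoxd11 was higher in GF in Foxl1-high cells (log2 1.84, 25.7 CPM in GF and 7.18 CPM in ff), in Cd36/Prdm1/Tbx3 cells (1.61, 31.5 CPM in GF and 10.3 CPM in ff) and in Col6a5/Adamdec1 cells (1.504, 37.0 CPM in GF and 13.04 CPM in ff), and lower in GF in Efhd1/Ackr2/Ildr2 cells (-0.78, 5.83 CPM in GF and 10.03 CPM in ff). Hoxd13 was higher in GF in Foxl1-high cells (1.03, 15.3 CPM in GF and 7.50 CPM in ff) and Cd36/Prdm1/Tbx3 cells (1.40, 30.2 CPM in GF and 11.5 CPM in ff), and lower in GF in Efhd1/Ackr2/Ildr2 cells (-1.23, 6.53 CPM in GF and 15.3 CPM in ff) and Myoc/Kcnn3 cells (-0.85, 11.8 CPM in GF and 21.2 CPM in ff).

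Hoxd9 was higher in GF in Foxl1-high cells (0.996) and lower in GF in Efhd1/Ackr2/Ildr2 cells (-1.09) and Pi16 cells (-1.29). Hoxd8 was higher in GF in Foxl1-high cells (0.79) and lower in GF in Ntrk3/Bdkrb1/Ccn5 (-1.58), Pi16 (-1.20), Angptl1/Ackr4 (-0.92) and Myoc/Kcnn3 cells (-0.72). In Foxl1-high cells, then, all 4 of these Hoxd genes were higher in GF, as was Hoxd10 (1.34), while Hoxa13 was level there at 44.8 CPM in GF and 44.7 CPM in ff. The Hoxa genes were mixed in that gate. Hoxa11 (0.52, 0.26 to 0.77) and Hoxa10 (0.29, 0.08 to 0.50) were higher in GF and Hoxa5 lower (-0.74, -1.46 to -0.08). The intervals of Hoxa3, Hoxa7 and Hoxa9 held 0. Hoxa13 itself was higher in GF in Cd36/Prdm1/Tbx3 cells (0.67) and lower in GF in Col6a5/Adamdec1 cells (-0.62), and Hoxc6 was higher in GF in Myoc/Kcnn3 cells (1.35) and lower in GF in Col6a5/Adamdec1 cells (-0.68).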

How the results depend on the processing

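No paired analysis was possible because each group has 1 library. Hoxc9 stayed higher in GF in all 6 alternatives run for single members. Of the 2 members higher in GF, 1 remained as a count with a minimum of 200 UMIs, 1 with 1 CPM added and 1 at 2-fold, and the number lower was 0 in every setting. Of the member and gate pairs, 53 higher became 35 with a minimum of 200 UMIs, 29 after thinning to 2000 UMIs and 31 at 2-fold, and 93 lower became 61 with a minimum of 200 UMIs. Summed Hox levels of 212 CPM in GF and 208 CPM in ff became 195 CPM in GF and 203 CPM in ff with the stricter cell filter, and 216 CPM in GF over all barcodes. The ratio of group 13 with Hoxd8 or Hoxd9 in ff, 0.518 at 2000 UMIs, was 0.162 at 4000. Among listed factors between the cell classes, the 3 higher became 1 at 2-fold, and the 4 lower became 1 with a minimum of 200 UMIs and 2 with Hoxa13 alone against Hoxc alone. These last alternatives, and the depth bins, were chosen after seeing the data. Of the 146 called pairs, 127 kept their call with 1 CPM added, 117 after thinning and 124 with 1 more marker required, and 13 and 11 changed sign in 1 library under thinning and stricter gates. Weighting GF gates by their ff shares moved 12 of 22 single members beyond their intervals, and turned the sign of Hoxa3, Hoxa9, Hoxa10, Hoxa11, Hoxb2, Hoxc6, Hoxc10, Hoxd8, Hoxd9 and Hoxd13, none of them called. The near-0 ratios of Hoxa3, Hoxa7 and Hoxc6 also changed sign under other scaling, filters or thinning. Depth limits members under 1 CPM and gates of few cells. The causes were not tested.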
